A study of Homo sapiens with 8 samples.

Results

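The glycosyltransferases that build mucin-type O-glycans, N-glycans and their shared terminal sugars were examined as a group of 52 genes. They were chosen by name and by known role, and a probe on the array was given to a gene through the accession that the scanner files list for it. A probe was found for 51 of the 52 genes, on 66 of the 41000 probes of the array, which name 17280 genes in all, and 14 of the genes had more than 1 probe. B3GALT5 had no matched probe and was not analysed here. FUT10 and FUT11 carry the current names POFUT3 and POFUT4, and the older names are kept.

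Mucin-type O-glycans start with N-acetylgalactosamine, which the GALNT enzymes place on serine and threonine. C1GALT1, GCNT1 and GCNT3 take part in adding the core sugars to it. In the classes below, GCNT2 is grouped with the core enzymes by name, and B3GNT6, which makes a core, with the B3GNT enzymes. N-glycans are added as a block and then branched by the MGAT enzymes. Galactosyltransferases and B3GNT enzymes extend both kinds of chain. Sialyltransferases (ST3GAL, ST6GAL, ST6GALNAC) and several of the fucosyltransferases (FUT) cap the chains. FUT8 instead adds the core fucose of N-glycans, and FUT10 and FUT11 are grouped with the fucosyltransferases by name. Sialylated and fucosylated caps, among them the Lewis antigens, are known from the mucins and serum markers of pancreatic cancer.

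The cells were CAPAN-2, an established human pancreatic adenocarcinoma line. ErbB2-KD clones (EV7, EV12, EV9 and EV18 on arrays 1 to 4) were stable transfectants of a puromycin vector with a small hairpin RNA against ErbB2, and were compared with a pool of 4 NT clones that carried the empty vector. MUC4-KD clones were made with a retroviral plasmid that targets MUC4, and were compared with a pool of 4 Mock clones of its empty vector. Each array was a 2-colour hybridisation of 1 clone and the pool, with the knockdown in Cy5 on 2 arrays of each experiment and in Cy3 on the others. The clones of MUC4-KD are not named in the labels, each line is a single clone, and the pool counts as 1 control sample, so the spread of the control does not enter any test.

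The 8 arrays lay on 3 slides, each with its own scan. Slide 1 held arrays 1 and 3 of ErbB2-KD and array 2 of MUC4-KD, slide 2 array 2 of ErbB2-KD and array 4 of MUC4-KD, and slide 3 array 4 of ErbB2-KD and arrays 1 and 3 of MUC4-KD. The signal behind the values was moderate. The median spot signal of a channel was 100 to 593, and 56.7% to 74.2% of the probes were well above background. The cells were checked with 9 markers of ductal epithelium, of which 7 (among them KRT7, KRT8, KRT18, KRT19 and EPCAM) were well above background in all 16 channels, while CFTR was so in 0. Of 17 markers of other cell types, CD14 was above background in all 16 channels and 5 in none. The rest were so in a part of the channels, among them VWF in 14, CD3E in 8 and COL3A1 in 7. Of the mucins that carry the glycans, MUC1, MUC4, MUC6 and MUC20 were above background in all 16 channels and MUC13 in 0.

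ERBB2 was lower in ErbB2-KD on 4 of 4 arrays with its brighter probe, with log2 ratios of -0.58, -0.32, -0.33 and -0.38, although it did not pass the test (mean -0.40 ± 0.12, SD, n = 4, adjusted p = 0.145), and its other probe lay at 0.04 ± 0.02. MUC4 was not lower in the RNA labelled MUC4-KD. Of its 4 probes, 2 were higher there, with mean log2 ratios of 1.84 ± 0.57 (adjusted p = 0.00804) and 1.34 ± 0.84 (adjusted p = 0.0355), and the others gave 0.27 ± 0.23 and 0.41 ± 0.33 and did not pass. The brightest of the 4, which gives the value of a gene elsewhere in this report, is the one at 0.27. With the 2 probes that passed, the targeted gene goes against the label. The direction as labelled is also the opposite of the study's own list for this experiment. The ratios below keep the direction of the labels (MUC4-KD over Mock), and the main comparisons between the experiments are also given with the sign turned.

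The spread of the channels between arrays differed in the same respect. On the ErbB2-KD arrays, the channel of the clones varied more between arrays than that of the NT pool for 36 of the 39 glycosyltransferases tested (median SD of the normalized log2 level 0.42 against 0.16) and for 86.0% of 12043 genes. On the MUC4-KD arrays the order was the other one. The channel labelled MUC4-KD varied more than that labelled Mock for 13 of 43 glycosyltransferases (median SD 0.16 against 0.28) and for 25.4% of 12311 genes. By the methods, the Mock channel held the same pool on the 4 arrays. The channel assignment was not tested.

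In ErbB2-KD, 39 of the 51 genes with a probe could be tested, since a probe had to be well above background on the 4 arrays in 1 of the 2 RNAs, and 2 of the 39 passed an adjusted p under 0.05 in limma. Over all 12069 genes tested, 1.98% passed. ST6GALNAC5 was higher and ST6GAL1 lower, where 0.787% of all genes were higher and 1.19% lower. Both add sialic acid in alpha2,6 linkage, ST6GALNAC5 mainly on gangliosides and ST6GAL1 on the galactose ends of N-glycans.

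ST6GALNAC5 had log2 ratios of 2.49, 1.92, 1.27 and 2.04 on arrays 1 to 4, a mean of 1.93 ± 0.50 (SD, n = 4; 3.81-fold; adjusted p = 0.0228). It was higher on each array, although the NT pool was well above background on only 2 of 4 arrays. The gene was thus tested only through the RNA in which it was high, so its direction was bound to the filter. The size is uncertain on the side of the pool. ST6GAL1 had log2 ratios of -0.91, -0.60, -0.73 and -1.12, a mean of -0.84 ± 0.23 (1.79-fold lower, adjusted p = 0.0455). Its other probe, which was too dim to be tested, lay near 0 on each array (-0.19 to 0.15). Without array 1, 3 or 4 neither gene passed (adjusted p up to 0.0847 for ST6GALNAC5 and 0.190 for ST6GAL1), while 4 of the glycosyltransferases passed without array 2. The share of all probes tested that passed moved likewise, from 1.43% with the 4 arrays to 2.04% without array 2. Without array 1, 3 or 4 it was 0%, 0.0168% and 0.138%.

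A further 4 genes came near the threshold and had the same direction on 4 of 4 arrays. FUT8, which adds the core fucose of N-glycans, had ratios of 1.47, 0.51, 0.80 and 1.45 (mean 1.06 ± 0.48, adjusted p = 0.0684). ST3GAL1, which sialylates the core galactose of O-glycans, had ratios of 0.64, 0.41, 1.35 and 1.15 (mean 0.89 ± 0.44, adjusted p = 0.0867), and its second probe gave 0.88 ± 0.50. The initiating enzyme GALNT12 had ratios of -1.06, -1.06, -0.46 and -0.59 (mean -0.79 ± 0.31, adjusted p = 0.0701). The galactosyltransferase B4GALT4 had ratios of -0.49, -1.39, -0.82 and -0.72 (mean -0.86 ± 0.38, adjusted p = 0.0771). In all, 11 of the 39 genes had the same direction on 4 arrays, 5 higher and 6 lower, where 28.1% of all genes did. At an unadjusted p under 0.05 there were 15 of 39, against 20.9% of all genes, and at a 2-fold change with an unadjusted p under 0.01 there were 2, against 3.28%.

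In the RNA labelled MUC4-KD, 43 of the 51 genes could be tested and 13 passed (8 higher and 5 lower), which is 30.2% where 23.4% of all 12334 genes tested passed (12.4% higher and 11% lower). At an unadjusted p under 0.05 there were 17 of 43, against 42.3% of all genes. Each class held few genes, and none was tested against the share of all genes. The genes that passed are listed by class. They were 4 of 6 fucosyltransferases, 2 of 6 alpha2,3-sialyltransferases (both higher), 3 of 5 alpha2,6-sialyltransferases (all 3 lower), 2 of 3 B3GNT enzymes (both higher) and 2 of 9 GALNT enzymes (both higher). B3GNT3 and GALNT14 were tested only through the RNA labelled MUC4-KD, in which they were high. Their direction was thus bound to the filter and adds nothing to these counts. Of the 6 galactosyltransferases, 4 core enzymes and 4 MGAT enzymes tested, 0 passed by limma, and at an unadjusted p under 0.05 only MGAT4A would. At a 2-fold change with an unadjusted p under 0.01 there were 8 of 43, against 6.79% of all genes. With the sign turned, each higher gene becomes a lower one and the reverse. The 15 genes that passed in an experiment or for the difference between experiments are shown by array, and the whole group by class.

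**Figure D1:**
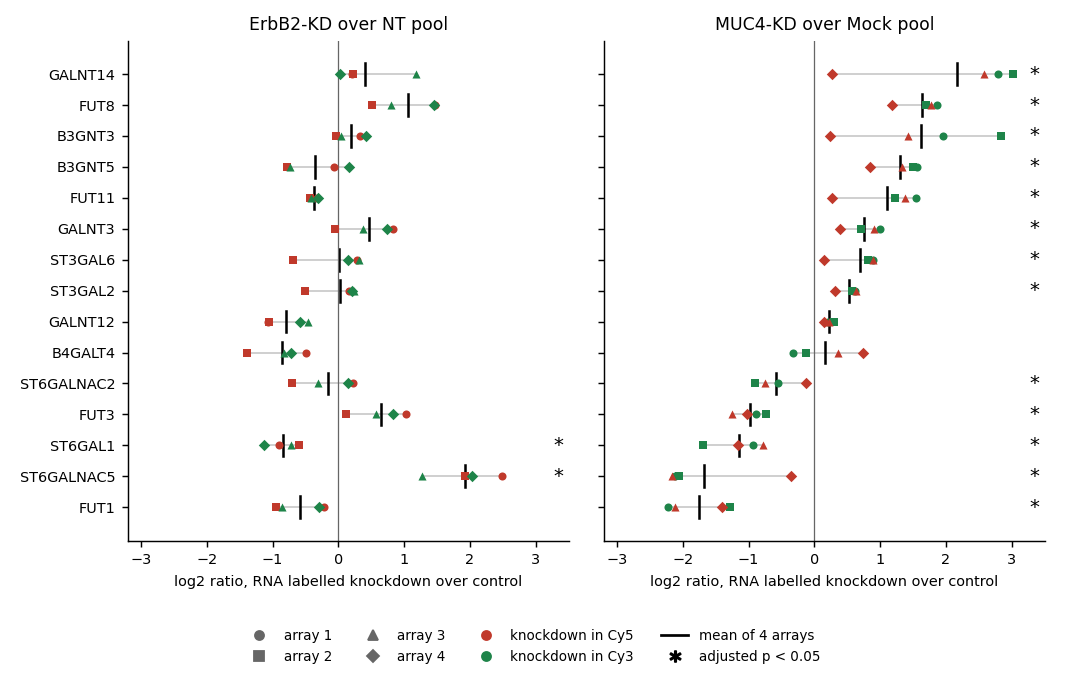
Log2 ratio of the RNA labelled as the knockdown over its control pool (x axis) for the 15 genes past an adjusted p of 0.05 in at least 1 comparison, with 1 point for each array, coloured by the dye of the knockdown, and a bar at the mean of 4 arrays. ST6GALNAC5 lay between 1.27 and 2.49 in ErbB2-KD and between -2.17 and -0.36 in MUC4-KD as labelled. Array 4 of MUC4-KD was the nearest to 0 for 10 of the 13 genes that passed there, and GALNT14 was too dim to be tested in ErbB2-KD.

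**Figure D2:**
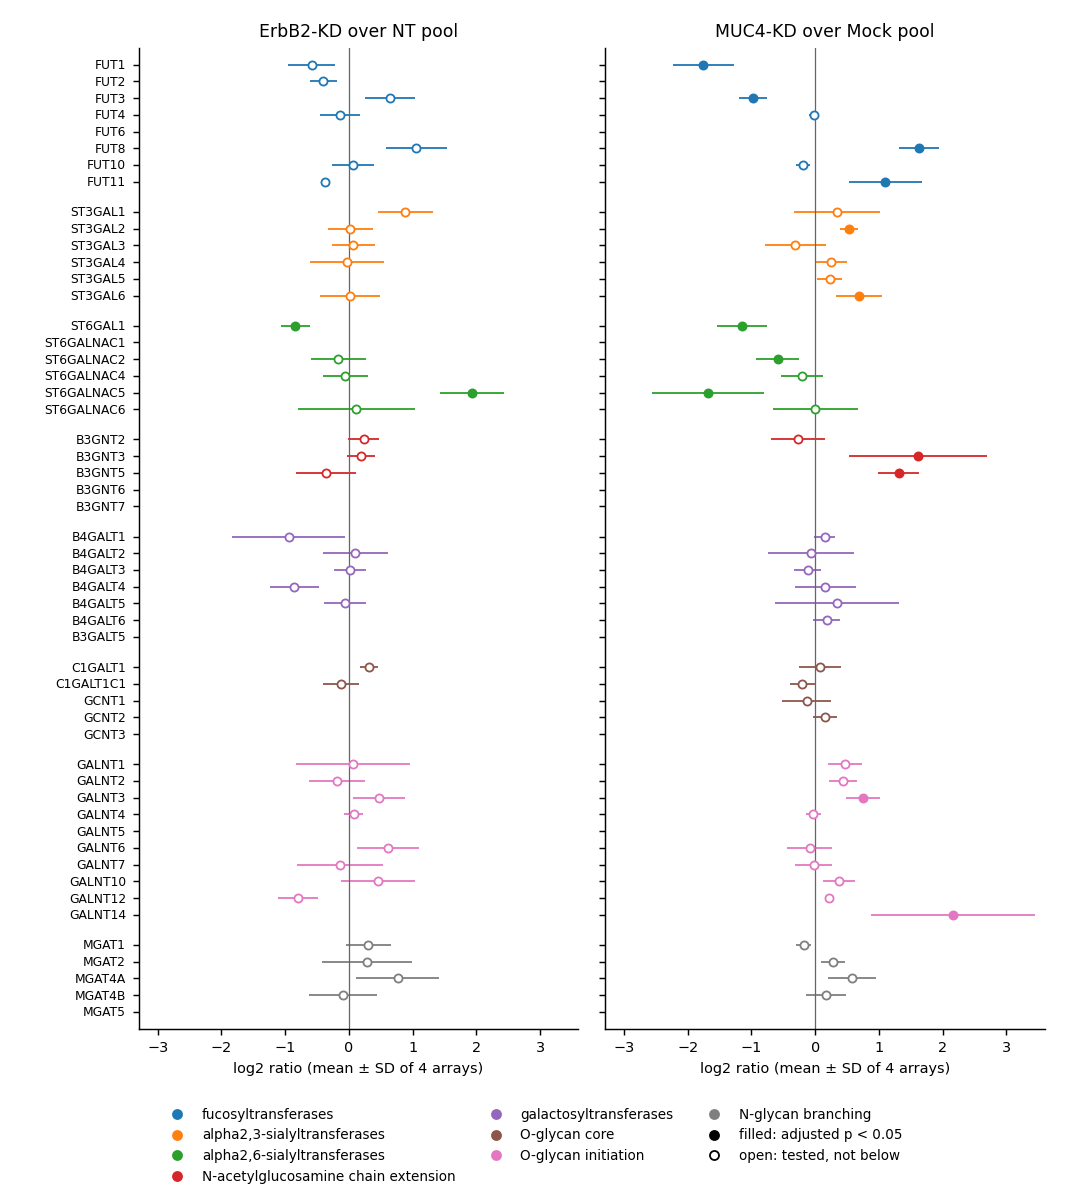
Mean log2 ratio ± SD over 4 arrays (x axis) of each glycosyltransferase tested, by class, with filled points for an adjusted p under 0.05 and no point for a gene that was not tested. In MUC4-KD as labelled, the 3 alpha2,6-sialyltransferases that passed were lower and the 2 alpha2,3-sialyltransferases that passed were higher. The other genes tested in these classes did not pass and had means from -0.31 to 0.34.

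Among the fucosyltransferases, FUT8 was higher and FUT1 lower with the largest changes of the class. FUT8 had log2 ratios of 1.86, 1.69, 1.77 and 1.18 (mean 1.63 ± 0.31, 3.09-fold, adjusted p = 0.00404). FUT1, which makes the H antigen, had ratios of -2.22, -1.29, -2.11 and -1.40 (mean -1.76 ± 0.48, 3.38-fold lower, adjusted p = 0.00644). No array of either gene came near 0, and arrays 1 and 3 of FUT1, which share a slide, lay together below arrays 2 and 4.

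FUT3, the Lewis enzyme, had ratios of -0.89, -0.73, -1.26 and -1.03 (mean -0.98 ± 0.22, 1.97-fold lower, adjusted p = 0.00912). FUT5, its near-identical neighbour in sequence, which is not among the 52 genes, had almost the same mean (-0.96 ± 0.34, adjusted p = 0.0158), and FUT6 was too dim to be tested, so which gene of this family was measured is uncertain. FUT11 had ratios of 1.54, 1.22 and 1.37 on arrays 1 to 3 and 0.26 on array 4 (mean 1.10 ± 0.57, adjusted p = 0.0265). FUT4, which makes Lewis x, was at -0.02 ± 0.07 and FUT10 at -0.19 ± 0.11. FUT2, the secretor enzyme, was not well above background in the RNA labelled MUC4-KD on any array and was not tested.

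The alpha2,6-sialyltransferases that passed were lower. ST6GALNAC5 had ratios of -2.13, -2.07 and -2.17 on arrays 1 to 3 but -0.36 on array 4 (mean -1.68 ± 0.88, 3.20-fold lower, adjusted p = 0.0238). ST6GAL1 had ratios of -0.94, -1.69, -0.79 and -1.16 (mean -1.14 ± 0.40, 2.21-fold lower, adjusted p = 0.0130), and its dimmer probe gave -0.34 ± 0.25 and did not pass (adjusted p = 0.108). ST6GALNAC2, which sialylates the first sugar of O-glycans, had ratios of -0.56, -0.90, -0.75 and -0.13 (mean -0.59 ± 0.34, adjusted p = 0.0462). ST6GALNAC4 and ST6GALNAC6 were at -0.20 ± 0.33 and 0.00 ± 0.67, and ST6GALNAC1 was not well above background in any channel.

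The alpha2,3-sialyltransferases that passed were higher, by less than 2-fold. ST3GAL6, which caps lactosamine chains, had ratios of 0.89, 0.81, 0.89 and 0.15 (mean 0.69 ± 0.36, adjusted p = 0.0359). ST3GAL2 had ratios of 0.61, 0.57, 0.63 and 0.32 (mean 0.53 ± 0.14, adjusted p = 0.0281), and its dimmer probe gave 0.28 ± 0.22 (adjusted p = 0.148). ST3GAL1, ST3GAL3, ST3GAL4 and ST3GAL5 did not pass, with means from -0.31 to 0.34. ST3GAL1 split by pairs of arrays, with -0.36 and -0.12 on arrays 1 and 3 and 0.99 and 0.86 on arrays 2 and 4, and its second probe split in the same way. Arrays 1 and 3 share slide 3.

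Both extending enzymes that passed were higher. B3GNT3, which extends core O-glycans, had ratios of 1.95, 2.84, 1.42 and 0.24 (mean 1.61 ± 1.08, 3.06-fold, adjusted p = 0.0395). The Mock pool was well above background on 3 of 4 arrays, so the gene was tested through the RNA in which it was high. B3GNT5, which builds the lacto-series glycolipids, had ratios of 1.56, 1.50, 1.34 and 0.84 (mean 1.31 ± 0.32, 2.48-fold, adjusted p = 0.00704). B3GNT2 was at -0.27 ± 0.42, and B3GNT6 and B3GNT7 were too dim.

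Of the initiating enzymes, GALNT14 and GALNT3 passed. GALNT14 had ratios of 2.79, 3.02 and 2.57 on arrays 1 to 3 and 0.26 on array 4 (mean 2.16 ± 1.28, 4.48-fold, adjusted p = 0.0292), but the Mock pool was well above background on only 2 of 4 arrays, so it was tested through the RNA in which it was high and the size is uncertain. GALNT3 had ratios of 0.99, 0.70, 0.90 and 0.39 (mean 0.75 ± 0.26, adjusted p = 0.0205). GALNT1 (0.47 ± 0.27, adjusted p = 0.0572), GALNT2 (0.44 ± 0.22, adjusted p = 0.0553) and, among the branching enzymes, MGAT4A (0.58 ± 0.38, adjusted p = 0.0538) lay just short of the threshold and were positive on 4 of 4 arrays. GALNT4, GALNT6 and GALNT7 were between -0.09 and -0.02.

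Array 4 of MUC4-KD stood apart from the others. It shared slide 2 with array 2 of ErbB2-KD, and these 2 had the lowest array weights of their experiments (0.365 and 0.423). Array 4 was the nearest to 0 for 10 of the 13 genes that passed, and the median size of the log2 ratio over the 43 genes tested was 0.26 there against 0.33 to 0.44 on the other arrays, and over all genes tested 0.24 against 0.38 to 0.40. Without array 4, 14 of the glycosyltransferases passed, and without array 1, 2 or 3 the number was 3, 5 and 0. The share of all probes tested that passed moved likewise, from 20.5% with the 4 arrays to 37.3% without array 4 and to 2.35%, 3.83% and 0.615% without array 1, 2 or 3. Without array 3, 14 glycosyltransferases had an unadjusted p under 0.05. In the channel levels of ST6GALNAC5, it was the Mock channel that differed on array 4 (normalized log2 level 8.95 against 10.91, 10.76 and 10.75), while the channel labelled MUC4-KD was at 8.78, 8.69, 8.58 and 8.59. GALNT14 was at 8.55 in the Mock channel of array 4 against 6.67, 6.44 and 6.69, and at 8.81 to 9.46 in the other channel. Its Mock values on arrays 2 and 4 were not well above background, so the 8.55 does not show more of its RNA there. The same holds for B3GNT3, at 8.55 in the Mock channel of array 4. That channel had the lowest share of probes well above background of all channels (56.7%). The part of that array in the counts is given by these numbers, and its origin was not tested.

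The dyes also moved with some of the values. In ErbB2-KD, arrays 1 and 2 (knockdown in Cy5) and arrays 3 and 4 (knockdown in Cy3) had opposite signs for 11 of the 39 genes, where 16.9% of all genes did so. They were ST3GAL4, ST6GALNAC4, ST6GALNAC6, B4GALT2, B4GALT3, B4GALT5, GALNT1, GALNT4, GALNT7, MGAT2 and MGAT4B. ST6GALNAC6, for example, had ratios of -0.54 and -0.81 against 0.98 and 0.82, GALNT1 0.42 and 1.16 against -0.76 and -0.57, and MGAT2 0.62 and 1.11 against -0.34 and -0.28. Their means near 0 thus hid opposite values, and the lowest unadjusted p among them in limma was 0.338, for MGAT2. No gene of the group had arrays 1 and 3 opposed to arrays 2 and 4 there, a split found for 3.11% of all genes. In MUC4-KD, arrays 1 and 2 opposed arrays 3 and 4 (the dye orientations) for 3 of 43 genes (B4GALT2, B4GALT4 and B4GALT5), where 10.3% of all genes did so. Arrays 1 and 3 opposed arrays 2 and 4 there for 6 (ST3GAL1, B3GNT2, GCNT1, GALNT4, GALNT6 and GALNT7), where 6.84% did. The first split follows the dyes, and in the second arrays 1 and 3 share a slide in each experiment. The part of dye, slide or clone in a split was not tested.

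The galactosyltransferases, core enzymes and branching enzymes varied without a call in either experiment. B4GALT1, the main galactosyltransferase of lactosamine chains, had ratios of 0.10, -1.60, -1.76 and -0.53 in ErbB2-KD (mean -0.95 ± 0.89, adjusted p = 0.214), and its dimmer probe gave -0.88 ± 0.63, so both probes were low on arrays 2 and 3. In MUC4-KD the same gene was at 0.15 ± 0.17 and -0.27 ± 0.59 with these probes. C1GALT1, which makes the first core of O-glycans, was at 0.32 ± 0.14 in ErbB2-KD and at 0.08 ± 0.33 on the MUC4-KD arrays, and its chaperone C1GALT1C1 at -0.13 ± 0.28 and -0.20 ± 0.20. MGAT1, which starts the branching of N-glycans, was at 0.31 ± 0.36 and -0.18 ± 0.12. MGAT4A was at 0.76 ± 0.65 in ErbB2-KD (adjusted p = 0.196), with array 2 at -0.20 and the others at 0.99 to 1.23. MGAT5 and GCNT3 were too dim in both experiments.

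The experiments were compared directly by the difference of their mean ratios in 1 fit over the 8 arrays. They also differ in vector, its delivery and the control pool, which cannot be told apart from the target here. Of 44 genes tested, 7 passed, where 11.6% of all 12637 genes did (6.72% with a positive and 4.88% with a negative difference). As labelled, ST6GALNAC5 differed by -3.61 ± 0.43 (SE, adjusted p = 0.00322), since it was higher in ErbB2-KD while the RNA labelled MUC4-KD had less of it. FUT3 also had opposite signs (0.64 ± 0.39 and -0.98 ± 0.22), with a difference of -1.62 ± 0.22 (adjusted p = 0.00541). B3GNT5 (-0.36 ± 0.47 and 1.31 ± 0.32) differed by 1.66 ± 0.26 (adjusted p = 0.00860) and FUT11 (-0.37 ± 0.06 and 1.10 ± 0.57) by 1.47 ± 0.26 (adjusted p = 0.0131). FUT1 was negative in both but more so in MUC4-KD, with a difference of -1.17 ± 0.27 (adjusted p = 0.0313). GALNT12 differed by 1.01 ± 0.18 (adjusted p = 0.0122) and B4GALT4 by 1.02 ± 0.27 (adjusted p = 0.0486), both negative in ErbB2-KD. In MUC4-KD, GALNT12 was at 0.22 ± 0.06 and positive on 4 of 4 arrays. B4GALT4 had ratios of -0.32, -0.13, 0.35 and 0.74 there (mean 0.16 ± 0.48), with opposite signs by dye orientation. ST6GALNAC5, FUT3, B3GNT5 and GALNT12 passed with any 1 of the 8 arrays left out, and B4GALT4 no longer passed when any of them was left out. FUT1 no longer passed without array 1, 3 or 4 of ErbB2-KD or array 1 or 3 of MUC4-KD, and FUT11 without array 3 of MUC4-KD. By the methods, each experiment had the same pool on its arrays, so leaving out an array does not change the pool.

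FUT8 and ST6GAL1 had mean ratios of the same sign in both experiments as labelled, although FUT8 did not pass in ErbB2-KD. The difference was 0.57 ± 0.26 for FUT8 (adjusted p = 0.186) and -0.30 ± 0.22 for ST6GAL1 (adjusted p = 0.391), which does not show that they were equal. With the sign of the MUC4-KD ratios turned, 9 of the 44 genes passed, against 17.2% of all probes tested. They were 2 higher and 7 lower (B3GNT3, B3GNT5, FUT1, FUT8, GALNT14, GALNT3, MGAT4A, ST3GAL1 and ST6GAL1). Then FUT8, FUT1 and ST6GAL1 have opposite signs, ST6GALNAC5 and FUT3 have the same sign in both, and of the 7 genes above only FUT1 (2.34) and B3GNT5 (-0.95) still pass, each with the other sign. The other differences become -0.25 for ST6GALNAC5, 0.34 for FUT3, -0.73 for FUT11, 0.57 for GALNT12 and 0.69 for B4GALT4. Of the 9 genes, GALNT14 was tested only through the RNA labelled MUC4-KD, in which it was high. Its direction was thus bound to the filter and adds nothing to the 9 or the 7 lower.

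**Figure D3:**
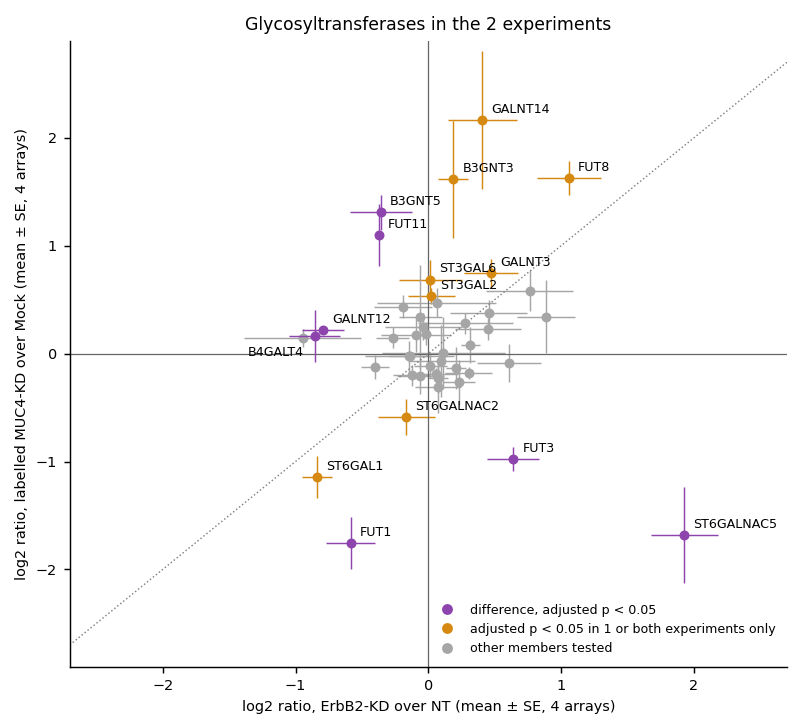
Mean log2 ratio in ErbB2-KD (x axis) against that in MUC4-KD as labelled (y axis) for the 44 glycosyltransferases tested for the difference, with error bars of 1 SE (SD over the square root of the number of arrays) and a dotted line of equal ratios. ST6GALNAC5 lies at 1.93 and -1.68 and FUT3 at 0.64 and -0.98, while FUT8 (1.06 and 1.63) and ST6GAL1 (-0.84 and -1.14) have the same sign on both axes.

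The channel levels of the same probe were set side by side across the 4 RNAs, as a description, because the arrays of the experiments were normalized separately. ST6GALNAC5 had a mean log2 level of 7.46 ± 0.59 in NT, 9.38 ± 0.86 in ErbB2-KD, 10.34 ± 0.93 in Mock and 8.66 ± 0.10 in MUC4-KD. The means of the control pools were 2.89 apart, but NT was well above background on only 2 of 4 arrays, so this size is uncertain. FUT3 was at 10.07 ± 0.09 in NT and 11.09 ± 0.08 in Mock, which differ by 1.01, and at 10.71 ± 0.38 and 10.11 ± 0.18 in ErbB2-KD and MUC4-KD. ST6GAL1 was also higher in Mock (11.56 ± 0.44) than in NT (10.32 ± 0.09), with 10.42 ± 0.16 in MUC4-KD and 9.48 ± 0.27 in ErbB2-KD. B3GNT5 was at 11.18 ± 0.08 in NT and 11.52 ± 0.19 in MUC4-KD, against 10.83 ± 0.39 in ErbB2-KD and 10.22 ± 0.39 in Mock. The RNA labelled MUC4-KD differed from NT by 0.04 for FUT3, 0.09 for ST6GAL1 and 0.34 for B3GNT5, less than the Mock pool did. Over the 44 genes tested for the difference, however, that RNA was the nearer of the 2 to NT for 19. Among all 12637 genes tested for the difference it was so for 47.0%. FUT8 showed a different order, with the controls at 10.23 ± 0.14 and 9.93 ± 0.38 and the labelled knockdowns at 11.29 ± 0.53 and 11.55 ± 0.10.

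**Figure D4:**
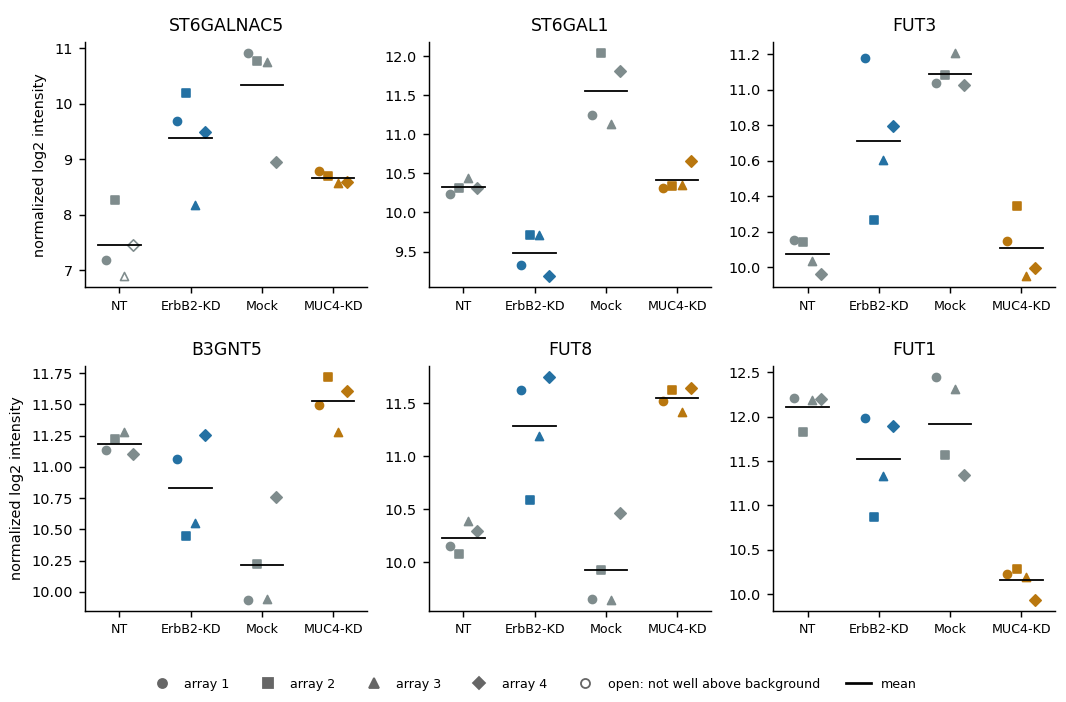
Normalized log2 intensity (y axis) of 6 glycosyltransferases in the NT, ErbB2-KD, Mock and MUC4-KD channels (x axis, as labelled), with 1 point for each array, open where not well above background, and a bar at the mean. For ST6GALNAC5 the Mock point of array 4 (8.95) lies below the other Mock points (10.75 to 10.91), and the MUC4-KD points lie together (8.58 to 8.78).

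The promoters of the genes that passed in both experiments (ST6GALNAC5 and ST6GAL1) and of B3GNT5 and FUT3, which had the next largest differences among the 7 genes past the test as labelled, are shown. With the sign of MUC4-KD turned, this choice would be another one. They are RefSeq sequences of build GRCh38.p14, from 250 bases before to 50 after the start, and 41 of the 52 genes have an entry. Capitals mark a STAT motif (TTCNNNGAA), a CCAAT box (the letters of its name) or, also on either strand, a GC box (GGGCGG). The 4 promoters lie at chr1:76867230-76867529 (ST6GALNAC5, plus strand), chr3:186930276-186930575 (ST6GAL1, plus strand), chr19:5851400-5851699 (FUT3, minus strand) and chr3:183253003-183253302 (B3GNT5, plus strand).
ST6GALNAC5: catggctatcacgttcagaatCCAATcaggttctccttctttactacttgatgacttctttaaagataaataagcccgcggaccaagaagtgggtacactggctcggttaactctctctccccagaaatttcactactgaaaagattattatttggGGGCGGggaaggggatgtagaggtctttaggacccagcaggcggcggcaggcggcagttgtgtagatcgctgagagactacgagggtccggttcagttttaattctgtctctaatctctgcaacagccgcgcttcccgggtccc
ST6GAL1: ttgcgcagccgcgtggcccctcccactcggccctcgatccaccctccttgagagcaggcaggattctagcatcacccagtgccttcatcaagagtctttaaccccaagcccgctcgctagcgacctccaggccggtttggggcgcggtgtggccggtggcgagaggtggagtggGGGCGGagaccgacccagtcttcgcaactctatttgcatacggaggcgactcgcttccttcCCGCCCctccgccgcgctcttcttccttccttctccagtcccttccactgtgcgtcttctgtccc
FUT3: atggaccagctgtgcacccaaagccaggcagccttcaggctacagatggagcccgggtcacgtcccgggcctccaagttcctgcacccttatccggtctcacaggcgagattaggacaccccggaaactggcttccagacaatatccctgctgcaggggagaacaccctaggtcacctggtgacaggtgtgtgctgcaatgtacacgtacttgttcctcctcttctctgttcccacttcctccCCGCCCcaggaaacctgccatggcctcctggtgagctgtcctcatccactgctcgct
B3GNT5: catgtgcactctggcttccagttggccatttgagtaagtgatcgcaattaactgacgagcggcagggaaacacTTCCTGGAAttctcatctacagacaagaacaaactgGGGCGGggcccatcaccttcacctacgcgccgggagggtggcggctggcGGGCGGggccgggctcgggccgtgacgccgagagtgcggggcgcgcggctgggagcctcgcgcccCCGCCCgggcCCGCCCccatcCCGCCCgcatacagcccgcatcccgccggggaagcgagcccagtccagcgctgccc
A GC box was found in each of the 4, once in ST6GALNAC5 and FUT3, 2 times in ST6GAL1 and 5 times in B3GNT5, and 45% of 35116 promoters of this length in the table hold it. A CCAAT box was found only in ST6GALNAC5 (34.6% of the promoters in the table) and a STAT motif only in B3GNT5 (7.66%). Neither a TATA box (TATAAA, 11.5%) nor an AP-1 motif (TGANTCA, 7.71%) was found in any of these windows. The share of G and C was 50% in ST6GALNAC5, 59.3% in FUT3, 64% in ST6GAL1 and 69% in B3GNT5. The motifs overlap in none of the 4, and they are matches of letters and not measured sites.

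Other genes of glycosylation were counted in the same way, over 6 lists of 137 genes (further transferases, sugar nucleotide synthesis, nucleotide sugar transporters, the N-glycan precursor and its transfer, N-glycan trimming, and glycosidases). In ErbB2-KD, 1 of 102 tested passed, MGAT3, which adds the bisecting sugar of N-glycans, with ratios of -1.88, -1.84, -1.42 and -0.89 (mean -1.51 ± 0.46, adjusted p = 0.0303). On the MUC4-KD arrays 26 of 105 passed, 9 higher and 17 lower, near the background of 23.4%. The further transferase GALNT18 was higher (2.11 ± 1.23, adjusted p = 0.0282, 0.32 on array 4), and so was GFPT2, an enzyme of the hexosamine pathway (1.48 ± 0.63, adjusted p = 0.0165). PMM2, which makes mannose phosphate for the N-glycan precursor, was lower, with ratios of -1.53, -1.31, -1.47 and -1.59 (mean -1.47 ± 0.12, adjusted p = 0.00271). Of the 31 genes of the precursor and its transfer, 4 were higher and 3 lower (median log2 ratio 0.00), of 9 transporters 0 and 2, of 9 trimming enzymes 0 and 2, and of 14 glycosidases 1 and 4.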

How the data were processed

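RNA of CAPAN-2 knockdown clones (4 ErbB2-KD and 4 MUC4-KD arrays) was hybridised against pools of control clones on Agilent 2-colour arrays. The authors deposited the scanner output of Feature Extraction 10.5.1.1, which holds the median spot and background intensity of each channel, flags and a log10 ratio of Cy5 over Cy3. A further deposited table of log10 ratios equals those ratios turned to labelled knockdown over control within 5e-06 and was not used further. The study used GeneSpring from there.

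From the intensities, background was corrected by normexp (offset 50) and each array was normalized by loess in R 4.3.3 with limma 3.58.1, without outlier-flagged spots. Ratios were turned by the dyes of the labels, and spots of a probe were averaged. The 43376 spots gave 41000 probes, of which 25393 were named through RefSeq accessions, 132 through the study's lists (FUT8 among them) and 15475 not at all. No spot was saturated. The fit of a probe left out any array on which its spots were flagged. Channel levels are from Aquantile scaling after loess. The mean log2 ratio of each probe was tested against 0 by lmFit and eBayes (two-sided, Benjamini-Hochberg over all probes tested, threshold 0.05), and the difference between experiments over all 8 arrays. A gene's value is that of its tested probe with the highest mean intensity. Genes were named in the text if they passed in a comparison, had a further probe that passed, or were named by the study, with others by class and up to 3 of each other list and direction at 2-fold; the genes near the threshold and those that split by dye were chosen after their values were seen. The genes, classes and lists were chosen with earlier results of these data known. The replicate numbers do not pair the samples (correlation of deviations -0.23 to -0.04). The number of arrays limits the precision, and the smallest p of an exact sign-flip test of 4 arrays is 0.125. The steps were tested on simulated data. Alternatives were another offset, the deposited log ratios, median centring, other filters, the mean of a gene's probes, a dye term, slide as a block (over 8 arrays, since 4 arrays on 3 slides give no correlation), an intensity trend, a joint fit, the methods' t-test, other thresholds, values within a slide, averaged pairs, leaving out each array, the replicate block and, chosen after seeing the data, array weights.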

Additional observations from a re-analysis of the deposited data

Results flagged for a closer look

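A total of 82 sets of 4 arrays were examined for an array far from the others, by its gap to the nearest one as a share of the whole range, and 6 sets held one, where chance gives about 1 in 20. In MUC4-KD, array 4 stood apart for ST6GALNAC5 (share 0.943), ST3GAL6 (0.890) and GALNT14 (0.836), each time nearer to 0, and array 3 for FUT4 (0.848), whose ratios are all small. In ErbB2-KD, array 2 stood apart for ST3GAL2 (0.894) and MGAT4A (0.831), below the others. Array 2 of ErbB2-KD and array 4 of MUC4-KD share a slide.

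The log2 ratio of the RNA labelled MUC4-KD minus that of ErbB2-KD passed the test of the difference for ST6GALNAC5 (-3.61), B3GNT5 (1.66), FUT3 (-1.62), FUT11 (1.47), FUT1 (-1.17), B4GALT4 (1.02) and GALNT12 (1.01). With the sign of MUC4-KD turned, the values in the same order are -0.25, -0.95, 0.34, -0.73, 2.34, 0.69 and 0.57, of which those of B3GNT5 and FUT1 pass.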

How the results depend on the processing

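Among the named genes, 425 values under the alternatives kept their direction and side of the threshold, 134 fell short of it, 8 came to pass it and 9 changed sign. The changes of sign were ST3GAL6 in ErbB2-KD (0.02 in the report; -0.12 with the deposited log ratios, -0.085 with median centring, and -0.086 to 0.25 with an array left out) and, with the sign of MUC4-KD turned, the differences of FUT1 (2.34), FUT3 (0.34), FUT11 (-0.73) and B3GNT5 (-0.95).

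The number of glycosyltransferases called in ErbB2-KD (2) was 1 with the deposited log ratios, a filter in both channels or a dye term, 5 with the slide as a block, 6 in a joint fit, 10 with array weights, 15 at an unadjusted p under 0.05 and 0 to 4 with an array left out. It was 0 with median centring, no filter, the methods' t-test or the 2 arrays of slide 1, where 12, 16, 10 and 10 had an unadjusted p under 0.05. In MUC4-KD (13) it was 7 without a filter, 8 at 2-fold, 0 with median centring or the methods' t-test (9 and 16 unadjusted) and 0 to 14 with an array left out. For the difference (7) it was 3 with the replicate block or the methods' t-test, 16 unadjusted, 0 with median centring or within slide 1 (8 and 7 unadjusted) and 4 to 9 with an array left out. The share of all probes tested that was called moved too. In ErbB2-KD (1.43%) it was 4.67% with the slide as a block, 4.83% in a joint fit, 7.08% with array weights, 0.130% with median centring, 0.122% without a filter and 0 to 2.04% with an array left out. In MUC4-KD (20.5%) it was 7.15% without a filter, 0.00399% with median centring, 0.423% with the methods' t-test and 0.615% to 37.3% with an array left out. For the difference (9.91%) it was 28.5% at an unadjusted p under 0.05, 2.26% with the replicate block and 2.11% with the methods' t-test. It was 0.453% with median centring and 2.47% to 19.6% with an array left out.

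Of the other glycosylation genes, the 1 called in ErbB2-KD became 3 with the slide as a block or a joint fit, 8 with array weights, 24 unadjusted, 0 to 2 with an array left out, and 0 with median centring, no filter, a filter in both channels, the methods' t-test or within slide 1 (14, 31, 23, 18 and 7 unadjusted). The 26 in MUC4-KD became 0 with median centring (9 unadjusted), 2 with the methods' t-test, 3 at 2-fold, 14 with arrays averaged by pairs, 42 within slide 3, 47 unadjusted, 50 with array weights and 1 to 41 with an array left out. The causes were not tested. Signal near background limits the genes that could not be tested, and the sign of MUC4-KD is not settled by these data.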
